A study of Canis lupus familiaris with 51 samples.

Results

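The genes described here are those of the NDC80 complex (NUF2, NDC80, SPC24 and SPC25) and of the centromere proteins CENPA, CENPE, CENPF, CENPP, CENPN and CENPI, measured in 51 canine cutaneous mast cell tumors (MCTs). They were taken as every array probe whose gene name, or failing that its description, was one of these 10 genes. This gave 15 of 43603 probes, 9 by gene name and 6 by description, for 9 of the 10 genes. No probe was found under the name CENPN. The NDC80 complex accounted for 7 probes and the centromere proteins for 8.

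The kinetochore is the protein structure built on the centromere of each chromosome, to which spindle microtubules attach during cell division. CENPA is the histone H3 variant that marks the centromere, and CENPI and CENPP belong to the inner protein network assembled on it. The NDC80 complex forms the outer contact with the microtubule: NDC80 and NUF2 carry the microtubule-binding ends, and SPC24 and SPC25 anchor the complex to the inner kinetochore. CENPE is a kinesin motor that moves chromosomes along the spindle, and CENPF, also called mitosin, is a large protein that joins the outer kinetochore before division. Transcripts of most of these genes accumulate in dividing cells, and MCTs are graded in part by their mitotic activity.

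The sequences of 4 probes are shown because the results turn on them: a NUF2 and an NDC80 probe that rose and fell together over the tumors, and an SPC24 and a CENPE probe that did not follow the other probe of their own gene. Each is 60 bases, printed 5′ to 3′ as the array files give it, with positions in the coordinates of the array annotation, whose genome build the files do not name.
NUF2: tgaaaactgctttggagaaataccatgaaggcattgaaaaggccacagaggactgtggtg
NDC80: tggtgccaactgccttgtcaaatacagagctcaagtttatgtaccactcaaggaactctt
SPC24: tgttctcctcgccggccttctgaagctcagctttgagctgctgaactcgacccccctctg
CENPE: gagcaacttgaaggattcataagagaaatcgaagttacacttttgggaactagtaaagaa
The NUF2 probe is at chr38:22574044-22574103 in reverse orientation. The NDC80 probe is placed at chr7:72340465-72344142, so that its 60 bases are spread over 3678 bases of genome. The CENPE probe is likewise spread over 938 bases at chr32:27406078-27407015, while the SPC24 probe has an entry of only 17 bases, at chr20:53103695-53103711. The annotation of exons and untranslated regions in these coordinates was not used here.

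Each of the 51 deposited arrays, of the Agilent canine expression design with a single dye, holds a different tumor. According to the methods some RNAs were labeled and hybridized again as technical replicates, whereas 1 array per tumor was analysed here. Some sample titles, those of T6, T117 and T134 among them, end in a number that the labels do not explain. Whether such an array is itself a repeat is not known. Tissue came from the central part of the tumor removed at surgery, so that the RNA is that of a bulk sample. The dogs were 30 females, 19 males and 2 of no given sex. Their ages, known for 49, ran from 3 to 14 years. By breed 14 dogs were Crossbred, 9 Boxer and 9 Labrador Retriever, which is 32 of the 51. The remaining dogs were of other breeds or had no breed given. The study's own classes are not in the sample labels and were used only to annotate single tumors: 13 differentiated and 4 undifferentiated reference tumors that could be matched by name, chosen by histological grade and mitotic index, and 33 others that the study placed by a prediction on these same arrays, 7 as undifferentiated and 26 as differentiated. NUF2 and CENPP were among the genes of that prediction. The study lists 1 more undifferentiated reference, under a name that no sample label holds. LM0 is the only array left without a class, but no label ties it to that name, so it was placed in no class. The undifferentiated references described here are therefore incomplete. LM0 does enter the relations over all 51 tumors and the tests of sex and age.

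The share of spots well above background lay between 59.4% and 74.8% per array, on 15 slides scanned in 9 sessions. The 4 mast cell markers found on the array (KIT, CMA1, FCER1A and MS4A2, of 8 listed) were well above background on all 51 arrays. Levels are log2 intensities after quantile normalization, and only differences within a probe are compared, never 1 probe with another. In bulk tissue, fewer cells of a type and less RNA per cell cannot be told apart.

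Of the 15 probes, 9 were well above background on all 51 arrays, and 1 probe per gene was chosen to stand for it in the relations below. NUF2 ran from 7.52 in T100 through a median of 9.20 to 11.89 in T9, a range of 20.7-fold. NDC80 ran from 5.54 in T113 through 7.71 to 10.72 in LM0, a range of 36.3-fold. The anchoring subunits also varied widely. SPC24 ran from 8.96 in T100 through 10.89 to 13.93 in T9, and SPC25 from 7.41 in T62 through 8.65 to 12.59 in T9. All 4 subunits of the complex thus had their highest level in T9 or LM0.

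The centromere proteins also spanned wide ranges. CENPA ran from 5.31 in T134 through 6.84 to 10.39 in LM0. CENPE ran from 4.76 in T62 through 6.08 to 9.22 in LM0. CENPP had the narrowest fold range of the 9, from 7.92 in T113 through 9.22 to 10.82 in LM0, which is 7.5-fold. The remaining genes were not well above background in some tumors: CENPF, from 2.01 to 8.26, was well above background on 40 of 51 arrays, and CENPI, from 1.73 to 7.37, on 37. Their lower values and fold ranges are therefore set in part by the background. Among the 9 genes LM0 had the highest level in 6 and T9 in the other 3.

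**Figure D1:**
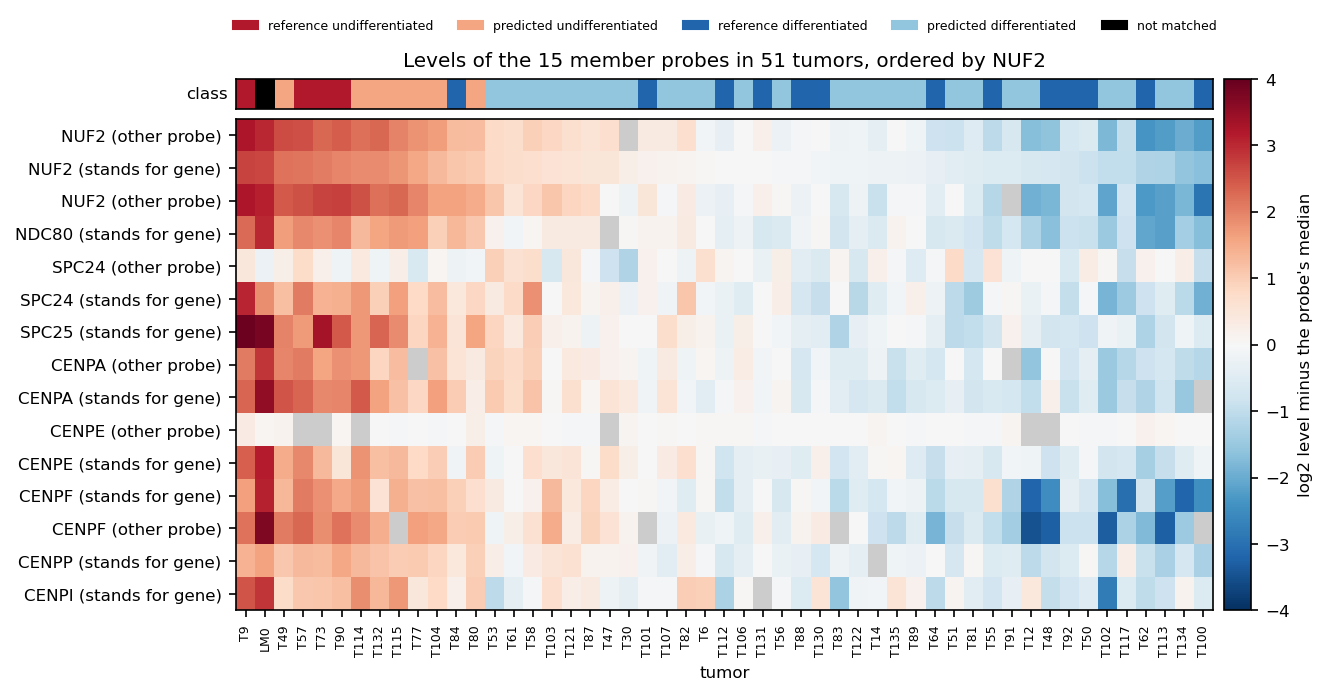
Heat map of the 15 probes (rows) in the 51 tumors (columns, ordered from the highest NUF2 level to the lowest); colors give the log2 level minus the median of the probe, gray cells are missing spots, and the strip above gives the class named by the study. Most rows pass from red on the left to blue on the right, whereas the second SPC24 probe and the CENPE probe that was never well above background do not.

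Standard deviations across tumors were 1.10 for NUF2 and 1.19 for NDC80, and 9.56% and 7.89% of all probes on the array varied at least as much. For SPC25 and CENPA these shares were 7.22% and 8.26%, and for CENPP 23%. The genes therefore lay in the more variable part of the array, with CENPP the least variable.

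The 9 genes rose and fell together from tumor to tumor. All 36 pairs of genes had a positive Pearson r, from 0.658 to 0.961 with a median of 0.843. Each of the 36 passed a two-sided permutation test (p = 1e-05, the smallest that 100000 resamples can give, and 1e-05 after Benjamini-Hochberg adjustment over the pairs). Spearman's rho was also past the test in 36 of 36 pairs. The genes had been listed with earlier results of these arrays known, so these p-values are no independent evidence.

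Within the NDC80 complex, NUF2 and NDC80, the partners that form its microtubule-binding end, were the closest pair of all, with r = 0.961 and rho = 0.95 (n = 50 tumors with both spots). NUF2 and SPC25 had r = 0.898 and rho = 0.876, and NUF2 and SPC24 r = 0.875 and rho = 0.853 (n = 51). The anchoring partners SPC24 and SPC25 had r = 0.815 with each other. On the log2 scale, NDC80 changed by 1.03 for each unit of NUF2, against 0.84 for SPC24.

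Among the centromere proteins, CENPA was closest to NUF2, with r = 0.943 and rho = 0.928. CENPP followed with r = 0.915 and rho = 0.863, then CENPF with r = 0.877 and rho = 0.9 and CENPE with r = 0.868 and rho = 0.828. CENPI was the farthest from NUF2, with r = 0.75 and rho = 0.707, although its relation with CENPE was closer (r = 0.854). The lowest r of any pair, 0.658, was that of CENPF and CENPI, the genes with the most arrays at background. CENPP changed by 0.64 per unit of NUF2.

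**Figure D2:**
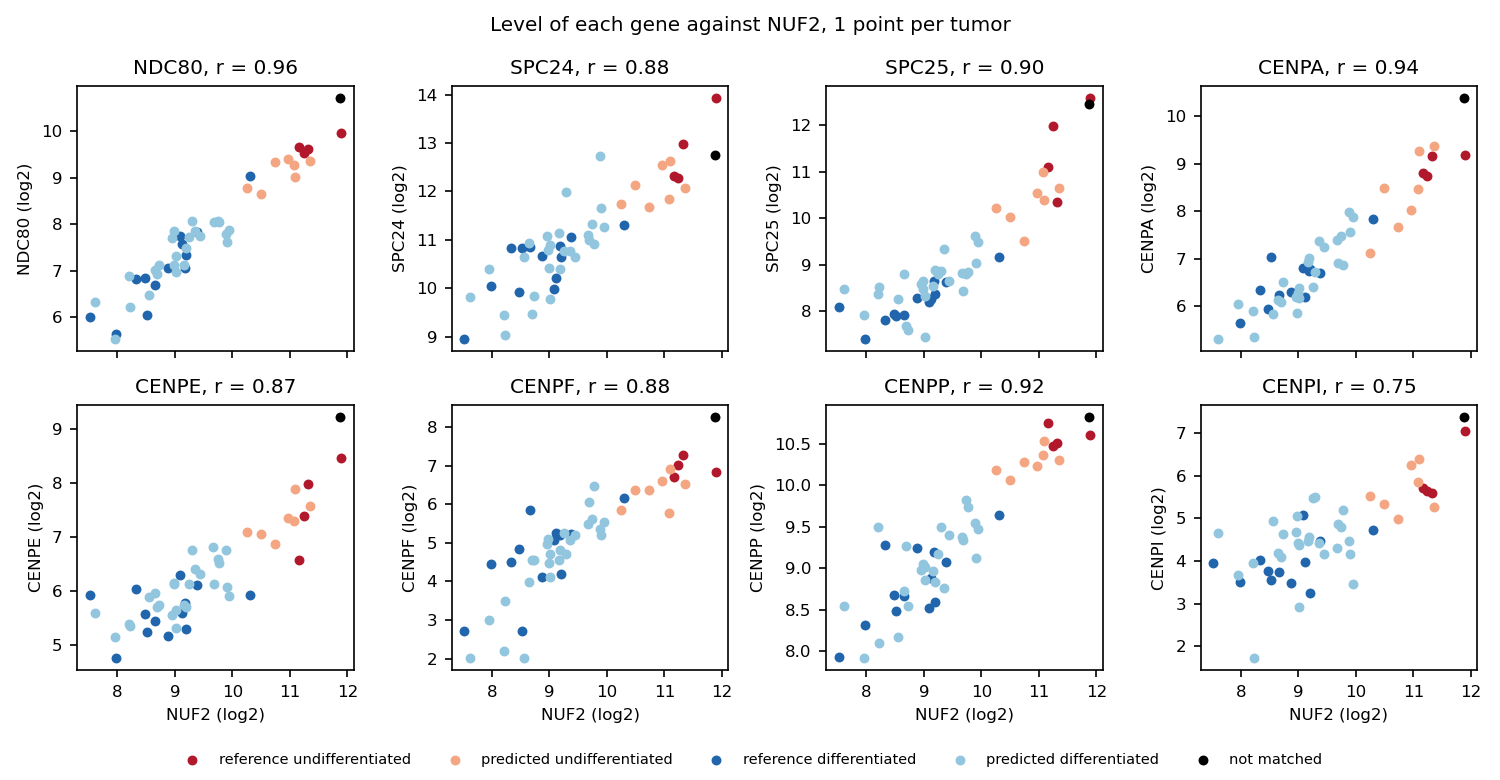
Log2 level of each of 8 genes (vertical axes) against the log2 level of NUF2 (horizontal axes), 1 point per tumor, colored by study class. Points follow a rising band in every panel, tightest for NDC80 (r = 0.961) and widest for CENPI (r = 0.75).

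Without the 2 tumors farthest from the median of the first gene of each pair, r lay between 0.651 and 0.953, and 36 of 36 pairs passed. Among the 39 tumors placed as differentiated the median r was 0.583, and 34 of 36 pairs passed, led by NUF2 with NDC80 (r = 0.886) and with CENPA (r = 0.863). The 2 pairs that did not pass were CENPA with CENPI (r = 0.239, permutation p = 0.15 and adjusted p = 0.15) and CENPF with CENPI (r = 0.315, permutation p = 0.055 and adjusted p = 0.057). Among the 11 tumors placed as undifferentiated all r were positive with a median of 0.588, but only 5 pairs passed on Pearson's r and 0 on Spearman's rho.

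The relations were as large within slides: with levels centred on each slide, r lay between 0.783 and 0.978, and 36 of 36 pairs passed. NUF2 had an r of 0.026 with the share of spots above background (permutation p = 0.86; rho = 0.105, p = 0.46).

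Of the 5 genes with more than 1 probe, 3 had probes that rose and fell together. The NUF2 probe printed above is not the one that stands for the gene, but the r between them was 0.978. The 3 NUF2 probes had r between 0.969 and 0.983 with each other, the CENPA pair 0.973 and the CENPF pair 0.903. The SPC24 pair had an r of only 0.401. The SPC24 probe known by its description had r = 0.875 with NUF2, whereas the one carrying the gene name, printed above, had r = 0.215, a value that 17.6% of all probes reached. That probe was well above background on all 51 arrays, between 4.96 and 7.12, and its coordinates run in the opposite direction to those of the other SPC24 probe. The strand of the gene was not checked. Whether the printed probe reads the SPC24 transcript was therefore not tested, and its low r is not taken as a result about SPC24.

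The CENPE probe printed above was well above background on 0 of 51 arrays, so the order of its values, between 1.75 and 2.17, is not read. The other CENPE probe, which the array names only as a predicted transcript similar to this gene, was well above background on all 51. With the mean over all probes of a gene, the printed SPC24 and CENPE probes included, the lowest r of any pair was 0.452 in place of 0.658.

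**Figure D3:**
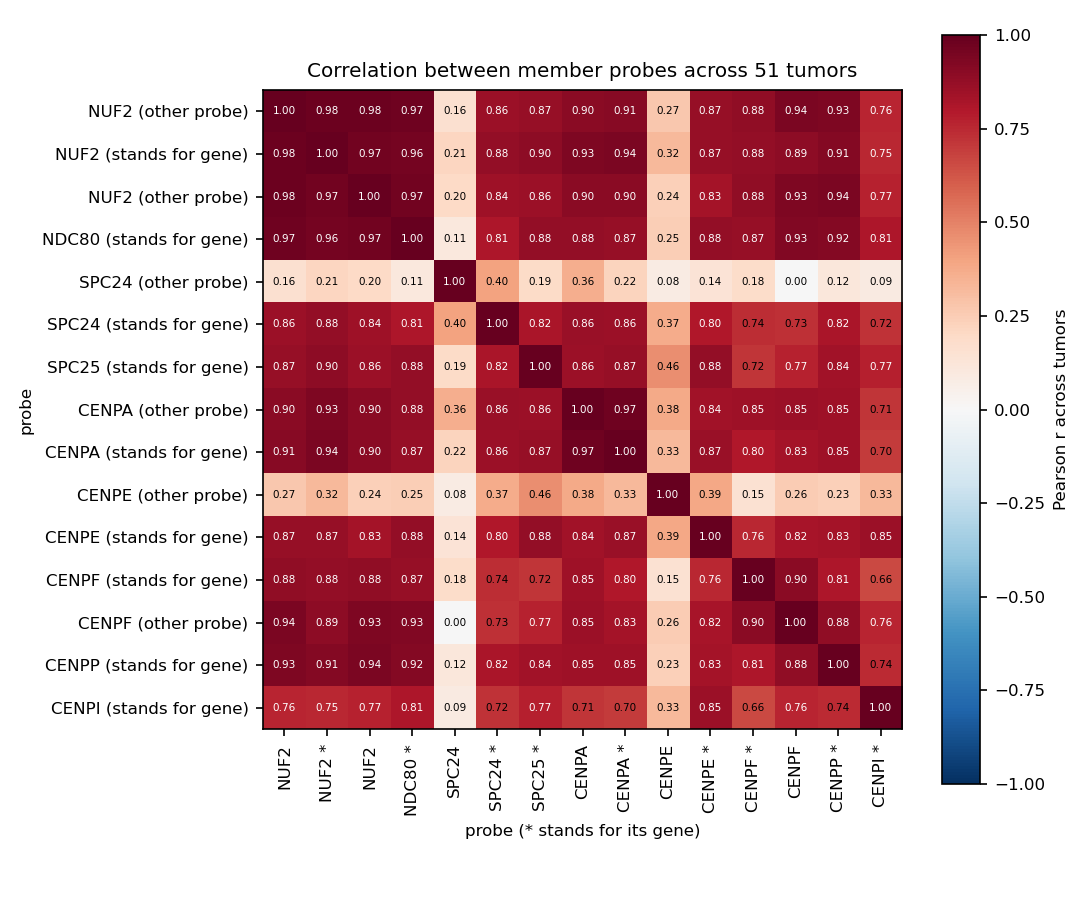
Pearson r across tumors between the 15 probes (both axes), with the value printed in each cell; a star in the column label marks the probe that stands for its gene. The second SPC24 probe and the CENPE probe below background form 2 pale crosses in an otherwise dark block.

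The pattern was compared with every probe on the array. An r of at least 0.7 with NUF2 was reached by 0.644% of the other probes, and by 10 of the 12 probes of the other 8 genes. The 2 that did not reach it were the SPC24 and CENPE probes printed above. With CENPP, 0.626% of all other probes and 12 of the 14 other member probes reached that value. Only 9 probes of the array had an r with NUF2 at least as high as that of NDC80, counting the NDC80 probe itself and the 2 remaining NUF2 probes.

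The 5 gene symbols outside the list with the highest r to NUF2 were DLGAP5 (0.964), CCNA2 (0.961), SPAG5 (0.961), CDC20 (0.956) and CCNB2 (0.956). CCNA2 and CCNB2 are cyclins that drive entry into and passage through mitosis, CDC20 activates the anaphase-promoting complex, and DLGAP5 and SPAG5 are proteins of the mitotic spindle. The 5 closest to CENPP were CCNA2 (0.936), PBK (0.925), SPAG5 (0.923), CCNB2 (0.922) and SHCBP1 (0.921). These are descriptions over 51 tumors that share array, slide and normalization.

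The proliferation marker MKI67 was not found by name on the array, so TOP2A, a DNA topoisomerase that cells make as they prepare to divide, was used in its place, a choice made after the data were seen. TOP2A was well above background on 39 of 51 arrays. All 9 genes followed TOP2A, with r from 0.779 for CENPI to 0.936 for NDC80 and rho from 0.78 to 0.945 (permutation p = 1e-05 and adjusted p = 1e-05 for each of 9). NUF2 had r = 0.923, CENPP 0.918 and CENPF 0.902. Without the 2 farthest tumors, r lay between 0.754 for CENPI and 0.921 for NDC80. Within the tumors placed as differentiated, r ran from 0.454 for CENPI to 0.831 for NDC80. RRM2, a subunit of the enzyme that supplies DNA building blocks, also followed NUF2 (r = 0.936, with 27 arrays well above background). PCNA, the sliding clamp of DNA replication, was well above background on all 51 arrays and had r = 0.79 with NUF2, whereas MCM2, of the helicase that opens DNA for replication, did so weakly (r = 0.249).

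Other kinetochore genes did not all share the pattern. Of 33 further genes listed, 15 had a probe, and 2 of them had an r of at least 0.7 with NUF2. The median r of the 15 was 0.37, beside -0.015 over all probes. The 3 highest were KNL1 (0.916), the scaffold to which the NDC80 complex is coupled, CENPH (0.903), a partner of CENPI in the inner network, and CENPQ (0.587). The 3 lowest were NSL1 (0.055), PMF1 (-0.032) and CENPB (-0.179). NSL1 was well above background on 0 arrays and PMF1 on 13, so that their values say little, whereas CENPB, which binds centromeric DNA, was above it on all 51.

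In the RefSeq gene table (UU_Cfam_GSD_1.0), ECM2, ASPN and OGN lie within the span of CENPP, and IPPK does not. Their probes had an r with CENPP of -0.667 for ECM2, -0.288 for OGN, -0.022 for IPPK and 0.04 for ASPN. With NUF2, which lies on another chromosome, the values were -0.736, -0.374, -0.077 and -0.031 in the same order. Whether any of their transcripts adds to the CENPP signal was not tested.

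Markers of other cell types were set against NUF2 and CENPP, 12 relations in all. Of these 0 passed the permutation tests, with r from -0.258 to 0.254 and a lowest adjusted p of 0.25 for Pearson's r and 0.17 for Spearman's rho. Without adjustment 0 had p under 0.05 on Pearson's r and 2 on Spearman's rho, NUF2 with the fibroblast mean and CENPP with the macrophage mean. NUF2 had r = -0.15 with the mean of the mast cell markers (rho = -0.164), -0.247 with the 5 fibroblast markers (rho = -0.307), 0.152 with the 4 keratinocyte markers (rho = 0.2), -0.002 with the 2 T cell markers, -0.223 with the 4 macrophage markers and -0.118 with the 4 endothelial markers. CENPP had r = -0.258 with the mast cell markers and 0.254 with the keratinocyte markers. Single markers stood apart from their list: decorin (DCN) had an r of -0.689 with NUF2, while COL1A1 of the same list had -0.055.

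The means of the marker lists overlapped widely between the study classes. The mast cell mean lay between 13.17 and 16.66 in the 11 tumors placed as undifferentiated and between 14.37 and 16.64 in the 39 placed as differentiated. The keratinocyte mean lay between 3.37 and 15.90 and between 2.64 and 15.95. Among keratinocyte markers KRT5 was well above background on all arrays but KRT10, DSG1 and KRT1 on 29 to 31. With levels centred within slides 1 of the 12 relations passed on Pearson's r, that of CENPP with the macrophage mean (r = -0.405, permutation p = 0.0034 and adjusted p = 0.041; rho = -0.46). On Spearman's rho 4 passed, the others being NUF2 with the macrophage mean (rho = -0.381) and the fibroblast mean (rho = -0.354) and CENPP with the keratinocyte mean (rho = 0.366), each with an adjusted p of 0.034 by permutation. The part of these cell types in the levels of NUF2 and CENPP was not tested.

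The study's classes are given as annotation, by values and ranges only. They are no independent grouping, since mitotic index helped to choose the references, and the remaining tumors were placed with NUF2 and CENPP among the genes used. NUF2 was 11.16 in T90, 11.24 in T73, 11.32 in T57 and 11.89 in T9, the 4 undifferentiated references matched by name. In the 13 differentiated references it ran from 7.52 in T100 through a median of 8.87 to 10.31 in T84, without overlap. In the 7 tumors placed as undifferentiated it ran from 10.25 in T80 through 10.97 to 11.36 in T49, and in the 26 placed as differentiated from 7.61 in T134 through 9.09 to 9.95 in T53. T84 was thus the only tumor of the differentiated class with more NUF2 than T80, and LM0 was at 11.88, next to T9.

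NDC80 was 9.54 in T73, 9.63 in T57, 9.67 in T90 and 9.97 in T9. It ran from 5.64 to 9.04 in the differentiated references, from 8.65 to 9.41 in the tumors placed as undifferentiated and from 5.54 to 8.08 in those placed as differentiated. CENPP was 10.48 in T73, 10.51 in T57, 10.60 in T9 and 10.76 in T90, against 7.93 to 9.64 in the differentiated references. Its widest gap between neighboring tumors, 0.25, lay below the 12 highest, which were the 11 tumors of the undifferentiated class and LM0.

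Among the reference tumors 13 of the 15 probes had every undifferentiated tumor above every differentiated one, where 1.17% of all probes did. These were the probe that stands for each of the 9 genes and the other NUF2, CENPA and CENPF probes. With mitotic index among the criteria for choosing the references, nothing is read from this count. The second SPC24 probe overlapped, with 7 of 13 differentiated references at or above the lowest undifferentiated one. Among the predicted tumors 6 of the 15 probes did not overlap, where 0.193% of all probes did not. They were the probes of NUF2, NDC80 and CENPP and the CENPE probe that stands for its gene. The prediction that placed these tumors used NUF2 and CENPP, so nothing is read from this count either. Across references and predictions CENPE did overlap. The undifferentiated reference T90 (6.57) lay below T47 (6.82), T58 (6.76), T82 (6.76) and T121 (6.59), all predicted as differentiated. For CENPA, 7 of 26 tumors predicted as differentiated reached the lowest level of those predicted as undifferentiated (7.12 in T80). The corresponding counts were 4 for CENPI, 2 for SPC24, 2 for CENPF and 1 for SPC25. No test was made on these classes.

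**Figure D4:**
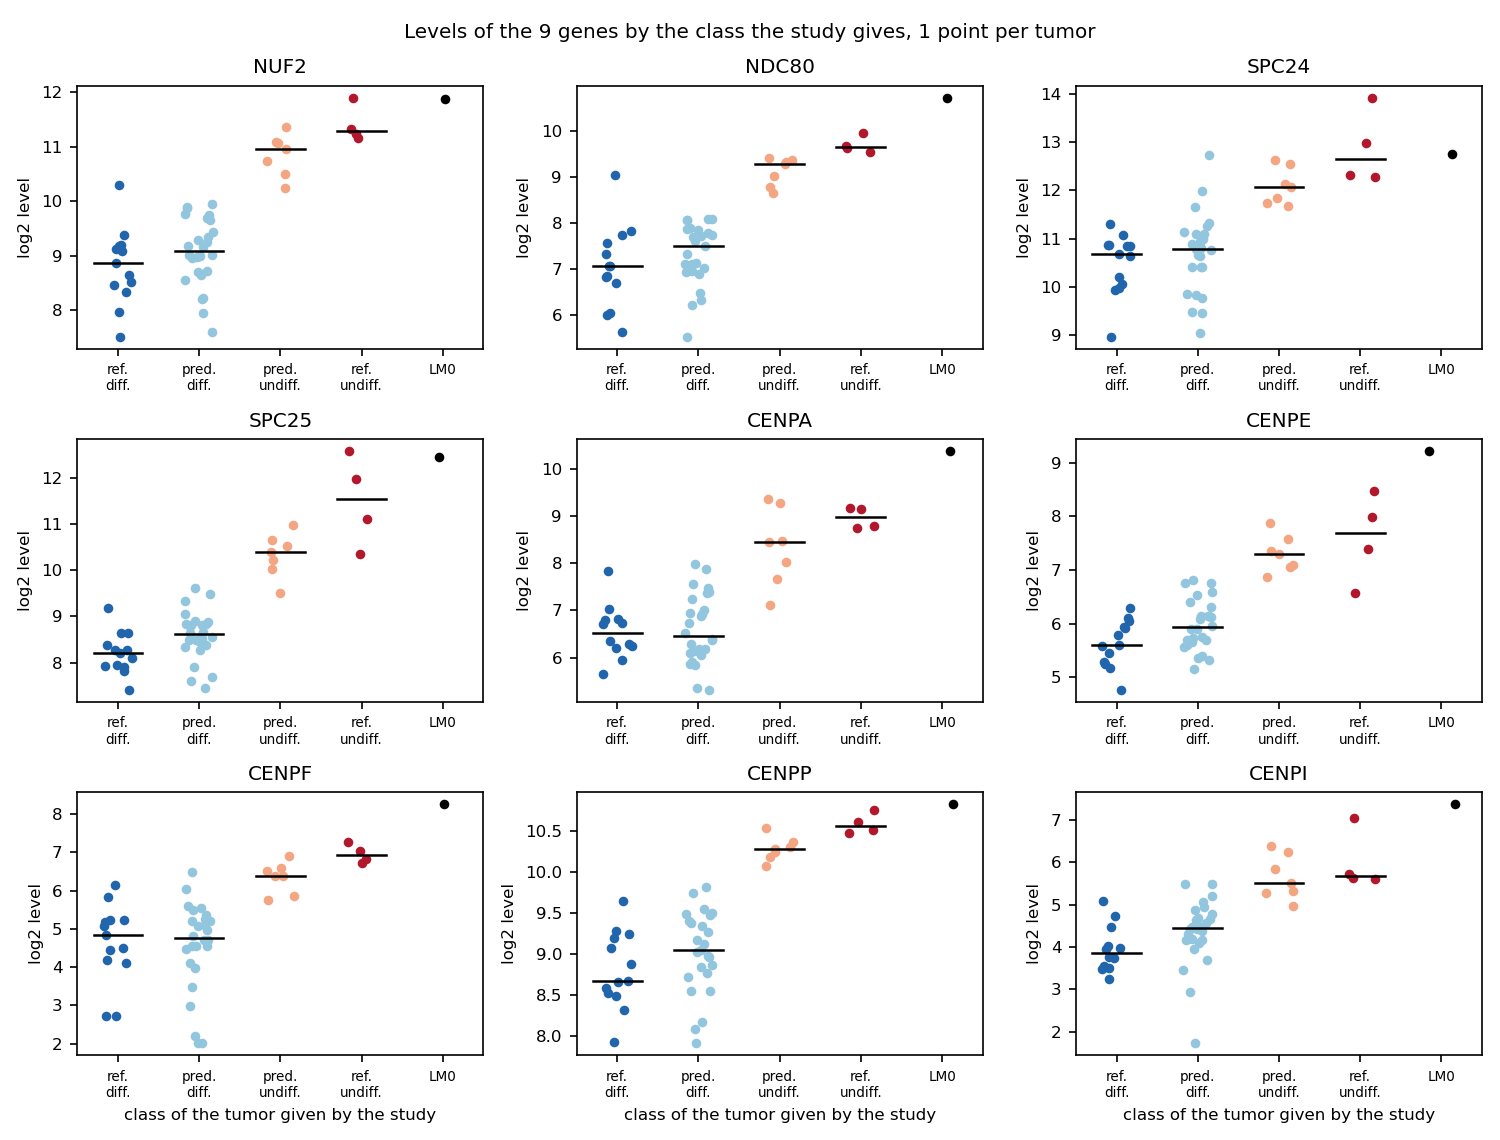
Log2 level of each of 9 genes (vertical axes), 1 point per tumor, by study class (horizontal axes: reference differentiated, predicted differentiated, predicted undifferentiated, reference undifferentiated, and the unmatched tumor LM0); lines are medians. For CENPP the 12 highest tumors are separated by a gap from the rest, and for SPC24 the predicted groups overlap.

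The agreement between genes was not complete in single tumors. Ranked by level, 6 tumors were among the 12 highest for every one of the 9 genes, and 32 were among them for no gene. These 6 were LM0, T9, T57, T73, T114 and T115. T58, placed as differentiated, was among the 12 highest for 3 genes and ranked 4 for SPC24, with a level of 12.74 that lay 1.36 above the line through NUF2. T62 and T113 were among the 12 lowest for all 9 genes.

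LM0 had 1.24 more CENPE than the line gave, and T90 had the lowest CENPE of the undifferentiated references (6.57). T117 had 1.02 more CENPP than its low NUF2 level of 8.20 gave. The residual from the line was -2.03 for CENPI in T102 and -2.04 for CENPF in T12, both at values near background. The residual standard deviation about the line was 0.33 for NDC80, 0.32 for CENPP, 0.51 for SPC24 and 0.55 for SPC25.

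Sex, age and breed were the groupings that the labels gave. All 15 probes had a lower mean in the 30 females than in the 19 males, with a median log2 difference of -0.74 over the probes, beside -0.01 over all 43603 probes. None of the differences was called. By limma with Benjamini-Hochberg adjustment over all probes, 0 of 15 passed an adjusted p of 0.05, where 0.0642% of all probes did, and the lowest adjusted p of the 15 was 0.814. Without adjustment 9 of 15 had p under 0.05, where 6.13% of all probes did. The 15 probes moved together and are not 15 separate observations.

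NUF2 ran from 7.52 through a median of 9.07 to 11.32 in females and from 8.23 through 9.38 to 11.89 in males. Its log2 difference was -0.74 ± 0.30 (SE). NDC80 ran from 5.54 through 7.12 to 9.63 in females and from 6.21 through 8.06 to 10.72 in males, a difference of -0.86 ± 0.33. CENPF had a difference of -1.06 ± 0.38, CENPI, an X-linked gene, -0.81 ± 0.28, CENPP -0.53 ± 0.22 and CENPA -0.50 ± 0.34. The ranges of the sexes overlapped for each.

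The sexes also differed in study class: 6 of 19 males and 4 of 30 females were placed as undifferentiated, and LM0 was a male. Within the tumors placed as differentiated (26 females and 12 males) the median difference over the 15 probes was -0.21, 12 of 15 were below 0, and 0 had p under 0.05 without adjustment. Within the undifferentiated class (4 females and 6 males) the median was -0.16, with 13 of 15 below 0 and 0 with p under 0.05 without adjustment. The part of class in the sex difference was not tested beyond these values. With slide as a fixed block the median was -1.15, and 12 of 15 had p under 0.05 without adjustment. With that block 0 of 15 were called by limma (lowest adjusted p 0.313), where 27 of all probes were. The share of all probes with p under 0.05 without adjustment was not taken for the class and slide fits. Nothing is read from their unadjusted counts.

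**Figure D5:**
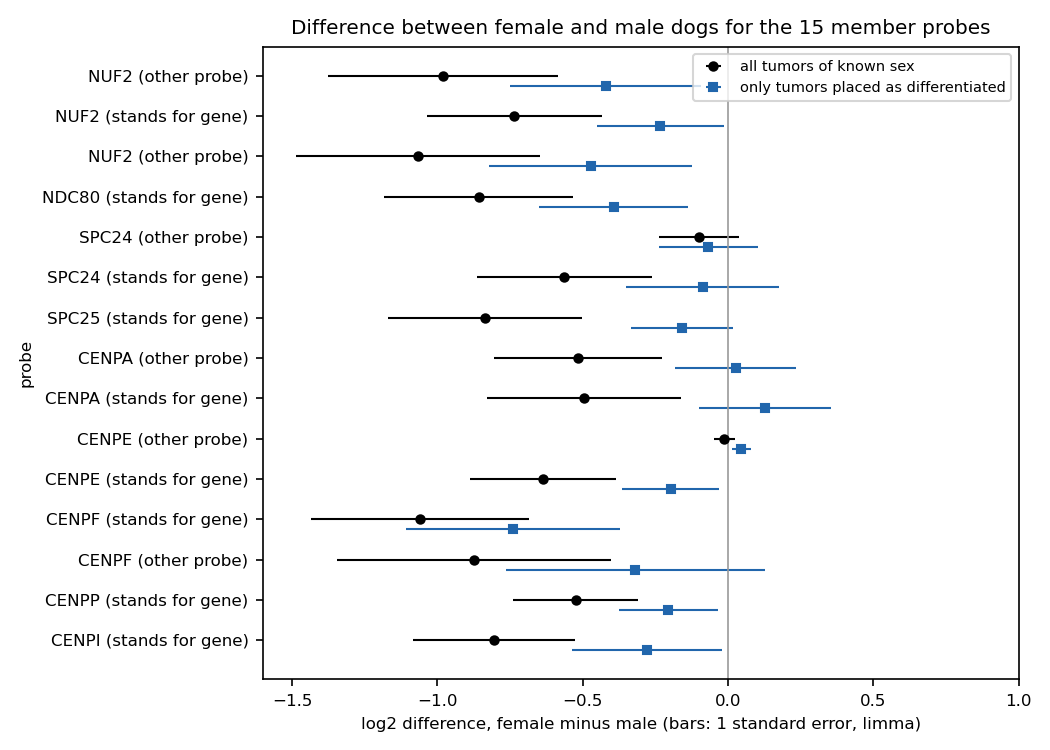
Log2 difference between females and males (horizontal axis) for each of the 15 probes (rows), with bars of 1 standard error from limma; circles are all 49 tumors of known sex, squares the tumors placed as differentiated. All 15 circles lie at or left of 0, and the squares lie closer to 0 as a set (median -0.21 against -0.74).

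Age showed no called change. The slope was above 0 in 15 of 15 probes, with a median of 0.08 log2 units per year beside -0.001 over all probes. By limma 0 of 15 were called, as were 0% of all probes, and 0 of 15 had p under 0.05 without adjustment, where 2.47% of all probes did. NUF2 had a slope of 0.09 ± 0.06 (SE, 49 dogs) and CENPP one of 0.07 ± 0.04.

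Breed likewise gave no called member. Among Boxer (9), Labrador Retriever (9) and Crossbred (14) dogs, 0 of 15 probes were called in each of 3 contrasts by limma, where 0.0849% of all probes were called between Boxer and Labrador Retriever, 0.0252% between Boxer and Crossbred and 0.023% between Labrador Retriever and Crossbred. Without adjustment 0 of 15 had p under 0.05 in each, where 4.67%, 4.13% and 3.12% of all probes did. NUF2 had a median of 9.66 in Boxer, 9.35 in Labrador Retriever and 9.17 in Crossbred dogs, with ranges of 8.55 to 11.09, 8.23 to 11.24 and 7.96 to 11.36. Its difference between Boxer and Labrador Retriever was 0.28 ± 0.47 (SE) and that between Boxer and Crossbred 0.30 ± 0.43, so that these sets of dogs could not be told apart on NUF2 at this size. SPC25 differed by -0.33 ± 0.52 between Boxer and Labrador Retriever and CENPI by 0.65 ± 0.44. Of the 15 other kinetochore genes with a probe, 0 were called by limma for sex, age or breed. Without adjustment 6 of these 15 had p under 0.05 for sex, where 6.13% of all probes did. All 6 were lower in females. The median log2 difference was -0.24 over the 15, beside -0.01 over all probes. The 15 were measured in the same tumors as the members. KNL1 and CENPH had r of 0.916 and 0.903 with NUF2, although the median r of the 15 was 0.37. These 15 are therefore not separate observations from the members. For age 0 of 15 had p under 0.05 without adjustment, where 2.47% of all probes did. Among the breed contrasts 1 did, between Labrador Retriever and Crossbred, where 3.12% of all probes did.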

How the data were processed

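RNA of 51 tumors was amplified, labeled and hybridized by the authors to Agilent canine arrays, and scans were extracted with Agilent Feature Extraction. The deposited processed signal is an intensity with background subtracted within each array, not normalized between arrays. The authors also deposited quantile-normalized intensities, used here as an alternative. For the main analysis log2 of the deposited processed intensity was taken, outlier-flagged spots (between 718 and 3291 on an array) were blanked, control spots dropped and replicate spots of each probe averaged, after quantile normalization across all 51 arrays.

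The members and gene lists were chosen with earlier results of these data known, and gene names are those of the array design. One probe stood for a gene: the one well above background on most arrays, then the one with the highest mean. Named were all member probes, the 3 highest and 3 lowest kinetochore genes by r with NUF2, the 5 genes most like NUF2 and CENPP, and the marker lists. MCM2, PCNA, RRM2, COL1A1 and DCN were named after their values were seen, as were IPPK, ECM2, ASPN and OGN. Sex, age (1 slope) and breed (1 fit, 3 contrasts) were tested with limma over all probes, with Benjamini-Hochberg adjustment at 0.05. Relations were tested with 100000 permutations of the samples. Each sample is 1 tumor case per the labels, and groups tested come from the labels alone, with the 2 dogs of no given sex left out of that test. Precision was limited by the number of arrays, and 59.4% to 74.8% of spots were well above background. limma was tested on simulated data with 30 and 19 samples.

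Alternatives were scaling to the 75th percentile, normexp background correction, the authors' values, flagged spots kept, dim probes left out (fewer than 10 of 51 arrays well above background), slide as a block, other covariates, a stricter threshold and, for relations, levels centred within slide, the mean over probes, extreme tumors left out and single classes. Tools were R 4.3.3, limma 3.58.1, the data.table package (1.17.8), statmod 1.5.0, matplotlib 3.10.9 and numpy 2.4.6. Histological grades, survival and qPCR values were not analysed here.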

Additional observations from a re-analysis of the deposited data

Results flagged for a closer look

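In the Boxer and Labrador Retriever dogs, 30 sets of values were screened for a sample far from the others, and 2 were found; chance flags about 1 in 20. The second CENPF probe was at 1.73 in T12, the lowest Boxer tumor, with the nearest other at 5.04. The SPC24 probe that carries the gene name was at 6.88 in T58, the highest Labrador Retriever tumor, with the nearest other at 6.37. T58 was also high for the other SPC24 probe, and T12 was the lowest Boxer tumor for the other CENPF probe (2.02). Both CENPF values of T12 were near background. Its array had 60.6% of spots well above background, where the median array had 68.7%, and 2279 flagged spots.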

How the results depend on the processing

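In the limma tests of sex, age and breed, 0 member probes were called under every alternative run, and all 36 pairs of genes passed under each processing alternative. The counts over all probes moved more. With the threshold set at an adjusted p of 0.01 together with a difference of 2-fold or more, the called probes fell to 11 for sex (from 28), 20 between Boxer and Labrador Retriever (from 37), 5 between Boxer and Crossbred (from 11) and 5 between Labrador Retriever and Crossbred (from 10). Scaling to the 75th percentile gave 6 for the last of these. Slide as a random block gave 24 between Boxer and Labrador Retriever, and as a fixed block 2, while the fixed block gave 1 between Boxer and Crossbred and 5 between Labrador Retriever and Crossbred. For sex 8 probes were called within the tumors placed as undifferentiated, a restriction added after seeing the data, as was the restriction of pairs to those tumors, where 5 pairs passed. Fewer samples enter both. Of the relations with marker lists, 1 passed on Pearson's r with levels centred within slide. The cause of the other changes was not tested. The relation with MKI67 was not run, as no probe carries that name, and TOP2A replaced it. With the slide as a fixed block the members' median difference between Boxer and Labrador Retriever turned from 0.20 to -0.32. Probes near background, CENPF and CENPI among them, have imprecise low values. No paired analysis was possible because each sample is a single tumor case and the replicate numbers only name samples.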
